A study of Mus musculus with 12 samples.

Results

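The Sox family encodes transcription factors that bind DNA through a high mobility group box, and its subgroups share sequence and often expression. SoxF factors (*Sox7*, *Sox17* and *Sox18*) are known from endothelial cells, where they take part in arterial and lymphatic development and act on genes such as *Dll4*, *Notch1* and *Prox1*. SoxC factors (*Sox4*, *Sox11* and *Sox12*) are known from progenitor cells of many embryonic tissues, SoxD factors (*Sox5*, *Sox6* and *Sox13*) lack an activation domain of their own and act with partners, and the SoxE factor *Sox9* is known from cartilage, heart valves and fibroblasts. These 10 genes were followed in bulk RNAseq of mouse cardiac fibroblast cultures that received *Sox17* and *Erg*, a pair of endothelial transcription factors, and they were chosen by gene symbol among the 35727 Ensembl genes of the count table, where each matched 1 row.

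The cells were fibroblasts from pooled hearts of neonatal C57BL/6J mice, selected for THY1 and kept in EGM2 endothelial medium in every group. Per the study, isolations for this characterization included a depletion of PECAM1+ cells, meant to remove endothelial cells of the hearts. *Sox17*-*Erg* cultures had been infected with retroviruses carrying both factors, control cultures bear the name PMX in the labels (which virus they received is not given in the sources used here), and RNA was taken at Day 3, Day 7 and 4 weeks. The 12 libraries, 2 in each of 6 groups, held 19011635 to 41240449 counts on genes. Control cells carry the label fibroblast and *Sox17*-*Erg* cells the label iEC, for induced endothelial cell. The labels do not tell whether the 2 libraries of a group came from separate cultures, so p-values measure the spread between these libraries, which may be technical.

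The genes are protein coding and lie at 10 loci of GRCm38: *Sox17* at chr1:4490931-4497354, *Sox13* at chr1:133382303-133424377, *Sox12* at chr2:152393611-152398063, *Sox18* at chr2:181669836-181671640, *Sox5* at chr6:143828425-144781977 and *Sox6* at chr7:115470872-116038796, all on the minus strand. *Sox11* at chr12:27334264-27342574 and *Sox4* at chr13:28948919-28953713 are on the minus strand too, and *Sox9* at chr11:112782224-112787760 and *Sox7* at chr14:63943673-63950732 on the plus strand. Counts are sums over the transcripts of each gene.

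The other genes of the libraries set the frame for these values. Levels are counts scaled by library size (CPM) after trimmed mean of M-values (TMM) normalization, and a gene was called when its Benjamini-Hochberg adjusted p over all 15506 tested genes, from the quasi-likelihood test of edgeR, was under 0.05. The summed level of 9 endothelial markers ran from 18.9 to 59.1 CPM in control and from 312 to 706 CPM in *Sox17*-*Erg* libraries, and fewer cells of a type cannot be told apart from less RNA per cell in such bulk samples. At 4 weeks, 6 endothelial markers of 8 tested were called higher in *Sox17*-*Erg*, 5 of 5 mesothelial and 4 of 6 cardiomyocyte markers lower, 4 of 8 fibroblast markers lower and 1 higher, and 4 of 7 smooth muscle and pericyte markers higher and 1 lower. In the same comparison 3 of 4 cell division markers and 1 of 4 each of the lymphatic and Schwann cell markers were higher, of 4 chondrocyte markers 2 were higher and 1 lower, and of 5 macrophage markers 0 were called in edgeR or DESeq2, with 0 at an unadjusted p under 0.05. Of all tested genes 11.9% were called higher and 11% lower at 4 weeks, so the counts of 1 marker in a list lie nearest that share. The part of these cell types in the Sox values was not tested. Summed levels of the fibroblast markers were 12479 to 35777 CPM in control and 10090 to 39098 CPM in *Sox17*-*Erg* libraries.

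All 10 Sox genes passed the filter on low counts, and 9 of them were called between the treatments at 1 or more time points, against 31% of all tested genes. *Sox17* was supplied by virus and passed the filter only through its *Sox17*-*Erg* libraries. Its calls, included in the counts given here, are therefore a description. At Day 3, 5 of the 10 were called higher in *Sox17*-*Erg* (*Sox17*, *Sox4*, *Sox11*, *Sox6* and *Sox13*), against 7.19% of all tested genes, and 2 lower (*Sox5* and *Sox9*), against 5.13%. At Day 7, 5 were higher (*Sox17*, *Sox7*, *Sox11*, *Sox6* and *Sox13*), against 9.48% of all genes, and 1 lower (*Sox12*), against 7.93%. At 4 weeks, 5 were again higher (*Sox17*, *Sox4*, *Sox11*, *Sox6* and *Sox13*), against 11.9% of all genes, and 2 lower (*Sox12* and *Sox9*), against 11% of all genes. The median log2 fold change over the 10 was 1.46, 1.68 and 2.53 at the 3 time points, beside 0.010, 0.0058 and -0.014 over all tested genes, and *Sox17*, which was supplied by virus, counts among the 10. Members of a subgroup did not all move alike: of SoxC, *Sox4* and *Sox11* were higher and *Sox12* lower at 4 weeks, and of SoxD, *Sox6* and *Sox13* were higher and *Sox5* was lower at Day 3.

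**Figure D1:**
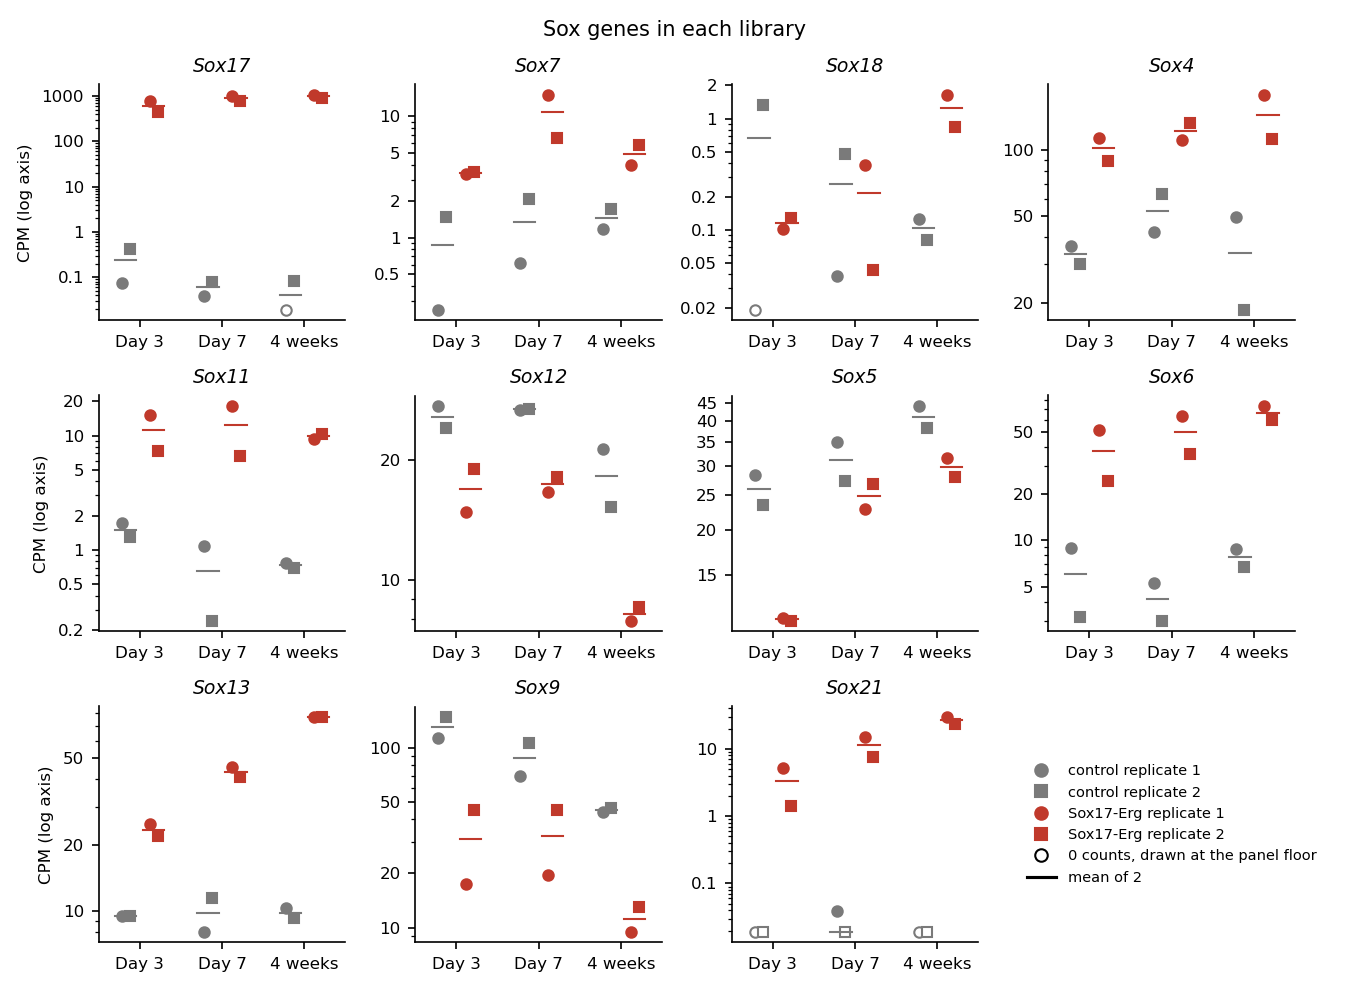
CPM of the 10 Sox genes and of *Sox21* in each of the 12 libraries, by time point, on log axes that differ between panels. Grey points are control and red points *Sox17*-*Erg* libraries, circles replicate 1, squares replicate 2, and bars the mean of 2. *Sox13* in *Sox17*-*Erg* climbs from 22.1 and 25.1 CPM at Day 3 to 76.7 CPM in both libraries at 4 weeks, while its control libraries stay between 8.06 and 11.5 CPM.

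Over the 3 time points together, 9 of the 10 genes gave library values of the treatments that never overlapped and kept 1 direction. They were *Sox17* (supplied by virus, so a description), *Sox7*, *Sox4*, *Sox11*, *Sox6* and *Sox13* among the higher, 6 genes against 14.6% of all tested genes that never overlapped in that direction, and *Sox12*, *Sox5* and *Sox9* among the lower, 3 genes against 13.6%. That separation alone fixes the exact two-sided permutation test of a gene, with treatments exchanged within time points, at p = 0.0093, the smallest value of its 216 permutations, so the test of these 9 restates the separation and any other gene so separated has the same p. *Sox18* had an exact permutation p = 0.5. With treatments exchanged only between libraries of the same number, separation fixes the exact permutation p at 0.031, the smallest of 64 exchanges. Both tests take the time points as independent, while same-numbered libraries of Day 3 and Day 7 deviated together (correlation across genes 0.17 in control and 0.22 in *Sox17*-*Erg*), so these p-values may be too small. With 2 libraries against 2, a single time point cannot reach a two-sided exact p below 0.33.

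*Sox17*, the gene carried by the virus, was first checked in every library. Control cultures held 2 and 9 counts at Day 3, 1 and 2 at Day 7, then 0 and 2 at 4 weeks. *Sox17*-*Erg* cultures held 15431 and 10019 counts (781 and 432 CPM), 36238 and 17996 counts (999 and 791 CPM), and 29276 and 24681 counts (1036 and 914 CPM). No library went against its label. The log2 fold change at Day 3 was 11.35 ± 0.61 (SE, n = 2 against 2), with an adjusted p of 0.0001, and against a floor of 3 counts per control library the later levels were at least 7591-fold (Day 7) and at least 9892-fold (4 weeks) higher. As the gene was supplied, and passed the filter only through *Sox17*-*Erg* libraries, these values are a description and not a test. From Day 3 to 4 weeks *Sox17* in *Sox17*-*Erg* cultures differed by a log2 fold change of 0.69 ± 0.36, which did not pass the test (adjusted p = 0.18). Counts per gene do not separate the viral copy from the chromosomal gene on chromosome 1, and the antisense gene *Gm37587*, which shares 804 exon bases with it, was not a row of the table.

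*Sox7*, the second SoxF gene, stayed low in every library and was higher in *Sox17*-*Erg*. Control libraries held 7 and 32 counts at Day 3 (0.255 and 1.48 CPM), 16 and 52 at Day 7 (0.614 and 2.09 CPM), then 47 and 42 at 4 weeks (1.18 and 1.71 CPM). *Sox17*-*Erg* libraries held 66 and 80 (3.34 and 3.45 CPM), 541 and 151 (14.9 and 6.63 CPM), and 113 and 156 (4.00 and 5.78 CPM). The treatments did not overlap at any time point, and the highest value was that of *Sox17*-*Erg* replicate 1 at Day 7. *Sox7* passed the test at Day 7, with a log2 fold change of 3.00 ± 0.74 (adjusted p = 0.024). Its values of 2.01 ± 0.77 at Day 3 (adjusted p = 0.12) and 1.77 ± 0.72 at 4 weeks (adjusted p = 0.11) did not. The Day 7 call was lost without control replicate 1 at Day 7 (log2 2.34, adjusted p = 0.10) and without *Sox17*-*Erg* replicate 1 at Day 7 (log2 2.30, adjusted p = 0.16), and when each time point was fitted alone (log2 2.99, adjusted p = 0.068). The Day 3 value passed in DESeq2 (adjusted p = 0.044) and with no filter (adjusted p = 0.0022), and the 4-week value with no filter (adjusted p = 0.0025) and fitted alone (adjusted p = 0.022).

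*Sox18*, the third SoxF gene and known for its part in lymphatic vessel development, was near the limit of detection and was not called at any time point. Control libraries held 0 and 29 counts at Day 3, 1 and 12 at Day 7, then 5 and 2 at 4 weeks, and Those with *Sox17*-*Erg* held 2 and 3, then 14 and 1, then 46 and 23. The treatments overlapped at Day 3 and Day 7 and were apart at 4 weeks, where *Sox17*-*Erg* was higher. The log2 fold changes were -2.44 ± 1.66, -0.15 ± 1.55 and 3.49 ± 1.55, with adjusted p of 0.36, 0.96 and 0.14. When each time point was fitted alone, the 4-week value was 3.52 and passed the test (adjusted p = 0.016), as it did with no filter (adjusted p = 0.012), where the alternatives ranged from 0.012 to 0.37.

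The control libraries with the most *Sox18* and *Sox7* at Day 3 and Day 7 were also those with the most *Cdh5*, the gene of VE-cadherin, an endothelial adhesion protein. *Cdh5* was at 0.910 and 14.3 CPM in control replicates 1 and 2 at Day 3, and at 0.230 and 8.08 CPM at Day 7. Of the 9 endothelial markers, 7 were higher in control replicate 2 than in replicate 1 at Day 3 (not *Kdr* and *Tek*) and 7 at Day 7 (not *Kdr* and *Esam*), and their sums were 59.1 against 28.2 CPM at Day 3 and 45.1 against 20.4 CPM at Day 7. For *Cdh5* at 4 weeks both control libraries were low, at 0.251 and 0.569 CPM. Over all time points *Sox17*-*Erg* libraries held 148 to 496 CPM of *Cdh5*. Without both control libraries numbered 2 at Day 3 and Day 7, a choice made after seeing the data, the log2 fold change of *Sox18* was 4.70 at Day 3 and 2.44 at Day 7, opposite in sign to the fit of all libraries. The sign at Day 7 also turned without *Sox17*-*Erg* replicate 2 at Day 7 (0.54) and with the replicate block over all libraries (0.12), so that it was not settled there. Both control libraries held more *Sox18* and *Sox7* than the other control library of their time point, so that a larger fold change of both genes followed from leaving them out and is no test of either gene. Each of those control groups then has 1 library, which is assumed to vary like the other groups. Of the members other than *Sox7*, that fit called *Sox17* and *Sox13* higher and *Sox5* lower at Day 3.

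**Figure D2:**
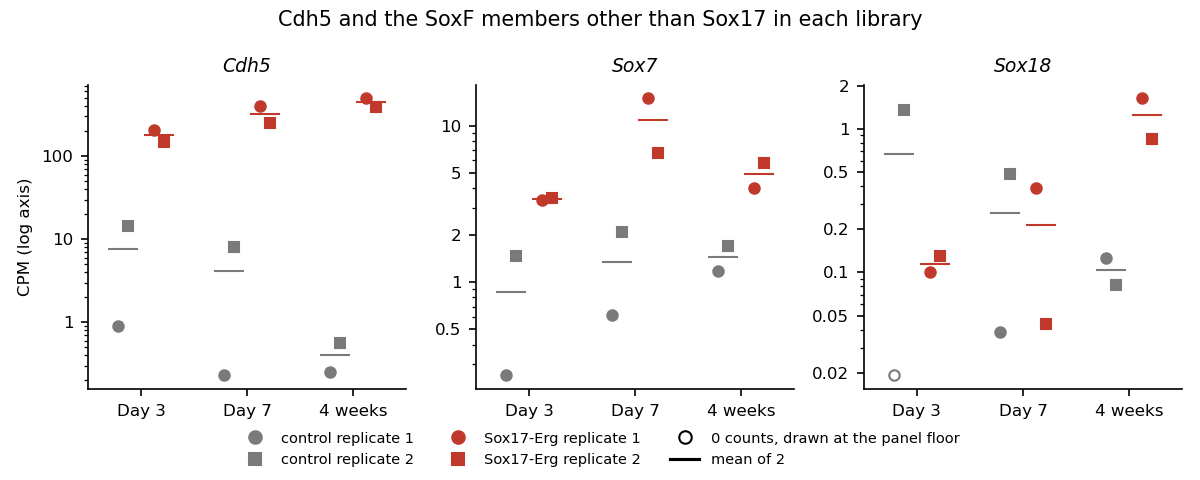
CPM of *Cdh5*, *Sox7* and *Sox18* in each of the 12 libraries on log axes that differ between panels, with control in grey, *Sox17*-*Erg* in red, replicate 1 as circles, replicate 2 as squares, an open symbol for 0 counts and bars for the mean of 2. Control replicate 2 lies above control replicate 1 in all 3 genes at Day 3 and Day 7, at 14.3 against 0.910 CPM for *Cdh5* at Day 3, while *Kdr*, another of the 9 endothelial markers, is not plotted and was lower in replicate 2.

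Of 12 genes known as targets or partners of SoxF factors in endothelium, 11 were tested and most were higher in *Sox17*-*Erg*. The list was chosen with earlier results of these data known, so its counts are a description. Of these, 6 were higher at Day 3 and 8 at each later time point, against 7.19%, 9.48% and 11.9% of all tested genes, while 0 were lower, against 5.13%, 7.93% and 11% of all genes, in edgeR and in the Wald test of DESeq2 at each time point (at an unadjusted p under 0.05 in edgeR, 1 was lower at 4 weeks). The median log2 fold change over the 11 was 1.18, 1.37 and 3.01, or 2.74 at 4 weeks with genes at the control floor set to their lower bound. *Efnb2*, an arterial ephrin ligand, was higher by 4.19 ± 0.28 at 4 weeks (adjusted p = 2.3e-05), and *Prox1*, a regulator of lymphatic endothelium, by 4.78 ± 0.37 (adjusted p = 5.2e-05). *Notch1*, a Notch receptor, rose by 1.98 ± 0.17, *Kdr*, the VEGF receptor 2 gene, by 3.26 ± 0.44, and *Vcam1*, an adhesion molecule, by 1.26 ± 0.21. The Notch ligand gene *Dll4* had 0 counts in both control libraries at 4 weeks against 2356 and 2563 in *Sox17*-*Erg*, at least 904-fold higher. Its control libraries at Day 7 and 4 weeks held 3 counts or fewer, under the minimum count of the filter. Its calls there, included in the counts above, are a description. Not called at Day 7 or 4 weeks were *Flt1*, *Robo4* and *Nr2f2*. Their log2 fold changes at Day 3, Day 7 and 4 weeks were -0.50, -0.12 and -0.61 for *Flt1* and -0.57, 0.66 and 3.01 for *Robo4*. For *Nr2f2*, called higher at Day 3, they were 0.71, 0.26 and -0.12. Of the 12, *Cldn5* fell under the filter, 3 are also on the endothelial marker list and 1 on the lymphatic list.

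*Sox4*, a SoxC factor of progenitor cells, had the highest level per kilobase among the 9 genes not carried by the virus in *Sox17*-*Erg* cultures. Control libraries held 36.6 and 30.1 CPM at Day 3, 42.1 and 62.8 CPM at Day 7, then 49.4 and 18.6 CPM at 4 weeks. Those with *Sox17*-*Erg* held 114 and 89.4 CPM, 111 and 133 CPM, and 178 and 112 CPM. The treatments did not overlap, and control replicate 2 at 4 weeks was the lowest of the 12 libraries. The rise of *Sox4* on the log2 scale was 1.61 ± 0.42 at Day 3 (adjusted p = 0.038) and 2.09 ± 0.42 at 4 weeks (adjusted p = 0.0074). The Day 7 value of 1.22 ± 0.41 missed the threshold (adjusted p = 0.072) and passed it with the replicate block within each time point (1.24, adjusted p = 0.0031), in DESeq2 (adjusted p = 0.016), with no filter (adjusted p = 0.00012) and fitted alone (adjusted p = 0.048), with 0.00012 to 0.26 over all alternatives. The Day 3 call held in 6 of 12 fits that each left out 1 library, and without *Sox17*-*Erg* replicate 1 at 4 weeks the 4-week call was lost (1.71, adjusted p = 0.054). *Gm26735*, an antisense gene that shares 2616 exon bases with *Sox4*, was not a row of the table, and whether counting used strand is not given in the sources used here.

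*Sox11*, a close relative of *Sox4*, was rare in control and about an order of magnitude higher in *Sox17*-*Erg*. Control libraries held 47 and 28 counts at Day 3, 28 and 6 at Day 7, then 31 and 17 at 4 weeks, which is 0.241 to 1.71 CPM. *Sox17*-*Erg* libraries held 298 and 169, then 654 and 150, then 266 and 277 counts, which is 6.59 to 18.0 CPM. All 6 *Sox17*-*Erg* libraries were above all 6 control libraries. The log2 fold changes were 2.88 ± 0.63 (adjusted p = 0.021), 4.21 ± 0.68 (adjusted p = 0.0037) and 3.73 ± 0.66 (adjusted p = 0.0039). The calls at Day 7 and 4 weeks held in 12 of 12 fits without 1 library each, and the Day 3 call in 9 of 12, being lost without control replicate 1 (adjusted p = 0.11), control replicate 2 (adjusted p = 0.15) or *Sox17*-*Erg* replicate 1 at Day 3 (adjusted p = 0.17).

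*Sox12*, the remaining SoxC gene, went the other way. It was at 27.3 and 24.1 CPM in control at Day 3, 26.8 and 27.0 CPM at Day 7, then 21.3 and 15.3 CPM at 4 weeks. In *Sox17*-*Erg* it was at 14.8 and 19.0 CPM, 16.7 and 18.2 CPM, and 7.93 and 8.56 CPM. Every *Sox17*-*Erg* value lay below both control values of its time point. *Sox12* fell by 0.63 ± 0.18 on the log2 scale at Day 7 (adjusted p = 0.040) and by 1.15 ± 0.18 at 4 weeks (adjusted p = 0.0022), a 2.23-fold lower level, and was at -0.60 ± 0.18 at Day 3 (adjusted p = 0.058), where DESeq2 (adjusted p = 0.025) and the fit with no filter (adjusted p = 0.033) called it lower. The 4-week call held in 12 of 12 fits without 1 library each and the Day 7 call in 5 of 12, and the latter was lost when Day 7 was fitted alone (adjusted p = 0.061). Of 4 genes known as targets of SoxC factors, 1 was called higher at Day 3, and 0 lower (*Tubb3* was at -1.48 ± 0.48, adjusted p = 0.077, and DESeq2 called 1 lower), 0 were called at Day 7 in edgeR and in DESeq2 (0 also at an unadjusted p under 0.05) and 2 were higher and 0 lower at 4 weeks in both tools, where 0 were lower at an unadjusted p under 0.05. The shares of all tested genes were 7.19%, 9.48% and 11.9% higher and 5.13%, 7.93% and 11% lower. The 2 were *Tead2*, a Hippo pathway factor, at 1.23 ± 0.19 (adjusted p = 0.0021) and *Stmn2*, a tubulin-binding protein gene, at 2.39 ± 0.64 (adjusted p = 0.027, held in 9 of 12 fits without 1 library each and lost when 4 weeks was fitted alone, adjusted p = 0.064). *Dcx* at 1.37 ± 0.78 and *Tubb3* at 0.75 ± 0.51, both neuronal cytoskeleton genes, did not pass.

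**Figure D3:**
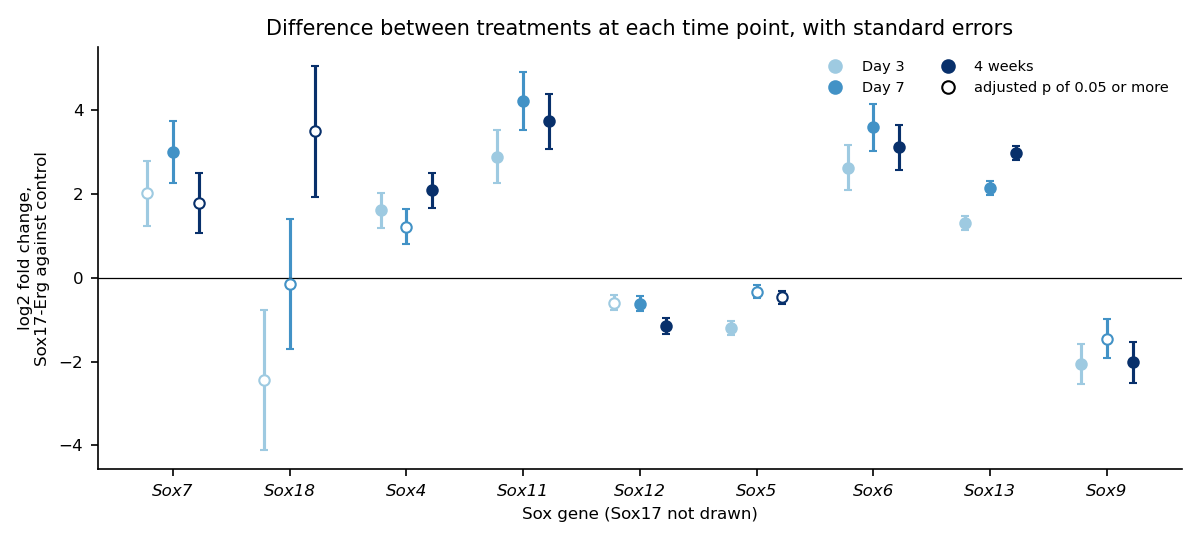
Log2 fold change of *Sox17*-*Erg* against control for the 9 Sox genes other than *Sox17* at Day 3, Day 7 and 4 weeks, with standard errors of the fitted model and open symbols where the adjusted p was 0.05 or more. *Sox13* steps up from 1.31 to 2.97, *Sox11* and *Sox6* stay between 2.62 and 4.21, and *Sox18* has the widest errors, 1.55 to 1.66.

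*Sox13*, a SoxD gene known from arterial walls and T cells, rose at each time point. Control libraries held 9.53 and 9.48 CPM at Day 3, 8.06 and 11.5 CPM at Day 7, then 10.3 and 9.27 CPM at 4 weeks. Those with *Sox17*-*Erg* held 25.1 and 22.1 CPM, 45.2 and 41.0 CPM, and 76.7 and 76.7 CPM. The 2 libraries of each *Sox17*-*Erg* group lay close together, and those groups overlapped neither each other nor control. The fold changes were 2.48 at Day 3 (log2 1.31 ± 0.16, adjusted p = 0.0023), 4.40 at Day 7 (log2 2.14 ± 0.17, adjusted p = 0.00012) and 7.82 at 4 weeks (log2 2.97 ± 0.17, adjusted p = 1.7e-05). Each call held in 12 of 12 fits without 1 library each. From Day 3 to 4 weeks the difference between treatments changed for *Sox13*, by 1.66 ± 0.23 (adjusted p = 0.0075), 1 of the 10 against 3.21% of all genes. No member was called for such a change from Day 3 to Day 7 or from Day 7 to 4 weeks in edgeR or DESeq2, where 0.0838% and 0.0387% of all genes were called in edgeR, and at an unadjusted p under 0.05 there were 2 members and 1 member.

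*Sox6*, a SoxD factor that acts with *Sox5* in cartilage and muscle, was higher in *Sox17*-*Erg* than in control at each time point. Control libraries held 8.91 and 3.19 CPM at Day 3, 5.26 and 3.01 CPM at Day 7, then 8.80 and 6.67 CPM at 4 weeks. *Sox17*-*Erg* libraries held 51.3 and 24.2 CPM, 63.3 and 36.1 CPM, and 73.3 and 60.2 CPM. All 6 *Sox17*-*Erg* libraries were above all 6 control libraries, and replicate 1 was the higher of its pair in each group. The log2 fold changes were 2.62 ± 0.53 (adjusted p = 0.017), 3.58 ± 0.55 (adjusted p = 0.0030) and 3.10 ± 0.53 (adjusted p = 0.0034). The Day 3 call was lost without control replicate 2 (2.05, adjusted p = 0.10) and without *Sox17*-*Erg* replicate 1 at Day 3 (1.94, adjusted p = 0.14).

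*Sox5*, the partner of *Sox6*, was lower in *Sox17*-*Erg*, and passed the test at Day 3. Control libraries held 28.4 and 23.4 CPM at Day 3, 35.1 and 27.3 CPM at Day 7, then 44.1 and 38.4 CPM at 4 weeks. Those with *Sox17*-*Erg* held 11.4 and 11.2 CPM, 22.9 and 26.8 CPM, and 31.7 and 28.0 CPM. Each *Sox17*-*Erg* library lay below both control libraries of its time point, at Day 7 by a narrow margin. *Sox5* fell by 1.20 ± 0.17 on the log2 scale at Day 3 (adjusted p = 0.0038), in 12 of 12 fits without 1 library each. At Day 7 the log2 fold change was -0.33 ± 0.16 (adjusted p = 0.19), and at 4 weeks it was -0.47 ± 0.16 (adjusted p = 0.065), or adjusted p = 0.049 with the replicate block over all libraries, where the alternatives ranged from 0.049 to 0.29. *Sox5os1*, an antisense gene that shares 1330 exon bases with *Sox5*, was not a row of the table.

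The promoters of *Sox13*, *Sox11* and *Sox6*, which were higher, and of *Sox12*, which was lower, are printed so that the letters that SOX and ETS factors are known to bind can be seen beside the values; ERG is an ETS factor. Promoters are those of RefSeq in GRCm38.p6, 250 bases before to 50 after the transcription start, read 5′ to 3′ on the strand of the gene, and of the 10 genes 6 had an entry, with 11 starts in all, 6 of them of *Sox6*. *Sox17*, *Sox7*, *Sox18* and *Sox9* were not among them. The motifs searched on both strands were ACAAT for SOX factors, its longer relative ACAAAG for the same factors, and GGAAG for ETS factors, and all are in capitals, also where the other strand holds them. Both SOX motifs cannot share a start, and the longer can share its last base with GGAAG.
*Sox13*, chr1:133424163-133424462, minus strand: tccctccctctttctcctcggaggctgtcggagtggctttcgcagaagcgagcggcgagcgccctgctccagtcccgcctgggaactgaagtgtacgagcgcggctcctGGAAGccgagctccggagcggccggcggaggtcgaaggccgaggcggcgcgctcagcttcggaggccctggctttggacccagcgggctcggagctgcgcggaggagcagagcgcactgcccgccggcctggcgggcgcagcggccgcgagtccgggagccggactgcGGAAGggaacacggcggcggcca
*Sox11*, chr12:27342669-27342968, minus strand: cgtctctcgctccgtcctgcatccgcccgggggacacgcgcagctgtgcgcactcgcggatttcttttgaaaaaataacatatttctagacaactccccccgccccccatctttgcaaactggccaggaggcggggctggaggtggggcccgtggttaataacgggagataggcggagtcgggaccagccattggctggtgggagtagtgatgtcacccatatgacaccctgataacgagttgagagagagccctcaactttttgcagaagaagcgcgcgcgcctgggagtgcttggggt
*Sox6*, its most upstream start, chr7:116038695-116038994, minus strand: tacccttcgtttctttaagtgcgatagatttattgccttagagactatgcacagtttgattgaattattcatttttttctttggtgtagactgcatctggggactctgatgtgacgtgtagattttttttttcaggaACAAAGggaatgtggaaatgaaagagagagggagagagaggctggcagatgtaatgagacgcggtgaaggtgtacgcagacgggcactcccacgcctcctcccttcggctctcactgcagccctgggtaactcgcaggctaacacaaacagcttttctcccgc
*Sox12*, chr2:152397997-152398296, minus strand: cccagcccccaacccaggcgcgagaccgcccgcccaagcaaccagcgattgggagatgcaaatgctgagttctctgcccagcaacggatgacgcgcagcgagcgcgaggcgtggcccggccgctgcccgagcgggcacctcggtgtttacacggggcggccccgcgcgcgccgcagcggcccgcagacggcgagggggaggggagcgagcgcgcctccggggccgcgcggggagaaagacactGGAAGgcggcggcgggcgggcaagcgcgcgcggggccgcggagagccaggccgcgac

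These windows did not share 1 motif. That of *Sox13* held GGAAG at 2 places, from -141 to -137 and from 27 to 31 with the first transcribed base counted as 0, that of *Sox12* held it from -7 to -3, that of *Sox11* held none of the motifs, and the upstream window of *Sox6* held ACAAAG from -113 to -108 and no GGAAG. Of the 6 *Sox6* windows, 4 held GGAAG and 6 a SOX motif. The windows not printed were those of *Sox4*, which held GGAAG at 3 places and no SOX motif, and *Sox5*, with 1 of each. The ETS motif was present in 71.4% of all 32851 promoters of the same length and in 8 of the 11 member windows, and a SOX motif in 42.9% of all promoters and in 7 of the 11, of which 6 are starts of *Sox6*. A match is a description of letters and no evidence of binding.

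*Sox9*, the SoxE gene, was the most abundant Sox gene per kilobase in control and fell in *Sox17*-*Erg*. Control libraries held 114 and 148 CPM at Day 3, 69.6 and 107 CPM at Day 7, then 44.2 and 46.4 CPM at 4 weeks. *Sox17*-*Erg* libraries held 17.4 and 45.1 CPM, 19.7 and 45.0 CPM, and 9.49 and 13.0 CPM. The treatments did not overlap at a time point, and replicate 2 was the higher of its pair in every group. *Sox9* fell by 2.06 ± 0.48 on the log2 scale at Day 3 (adjusted p = 0.028) and by 2.01 ± 0.49 at 4 weeks (adjusted p = 0.017), levels 4.17-fold and 4.03-fold lower. The Day 7 value of -1.45 ± 0.47 missed the threshold (adjusted p = 0.065), and it passed with the replicate block over all libraries (-1.51, adjusted p = 0.0088) and within each time point (-1.53, adjusted p = 0.0054), in DESeq2 (adjusted p = 0.0079) and with no filter (adjusted p = 3.7e-05), where all alternatives ranged from 3.7e-05 to 0.35. Each of these 4 fits raised the count of members lower at Day 7 from 1 to 2. The 4-week call was lost when any 1 of its 4 libraries was left out (adjusted p of 0.055 to 0.12), and the Day 3 call without control replicate 1 (adjusted p = 0.084), control replicate 2 (adjusted p = 0.13) or *Sox17*-*Erg* replicate 1 at Day 3 (adjusted p = 0.17).

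Cartilage matrix genes known as targets of *Sox9*, *Sox5* and *Sox6* did not move as 1 group. All 12 were tested: 0 were called higher and 1 lower at Day 3, 1 higher and 0 lower at Day 7, and 2 higher and 1 lower at 4 weeks. The 4-week counts lie near the shares of all tested genes, 11.9% higher and 11% lower, and those shares were 7.19% and 5.13% at Day 3 and 9.48% and 7.93% at Day 7. DESeq2 called 0 higher and 2 lower at Day 3 and 3 higher and 1 lower at Day 7, and at an unadjusted p under 0.05 edgeR had 2 higher at Day 3 and 3 lower at Day 7. Their median log2 fold change was -0.44, -0.31 and -0.016. *Acan*, the gene of the proteoglycan aggrecan, had 29 and 21 counts in control at Day 3, 7 and 3 at Day 7, then 0 and 1 at 4 weeks, against 56 and 55, 333 and 61, and 143 and 99 in *Sox17*-*Erg*. It was apart at each time point, passed the test at Day 7 (log2 4.90 ± 0.71, adjusted p = 0.0021) and 4 weeks (adjusted p = 0.00060), and was at least 44.3-fold higher at 4 weeks. *Col2a1*, the cartilage collagen II gene, overlapped at Day 3 and was higher at 4 weeks, with 149 and 114 counts against 29 and 10 (log2 3.03 ± 0.66, adjusted p = 0.011), a call lost without control replicate 2 (adjusted p = 0.067) or *Sox17*-*Erg* replicate 1 at 4 weeks (adjusted p = 0.056). *Comp*, a matrix protein gene of cartilage and tendon, was at 139 and 84 counts against 1989 and 211 at 4 weeks, and its log2 fold change of -2.86 ± 0.76 (adjusted p = 0.025) became -1.09 (adjusted p = 0.32) without control replicate 1 at 4 weeks and also lost its call without either *Sox17*-*Erg* library of that time and when 4 weeks was fitted alone (adjusted p = 0.067). *Matn4* at -1.91 ± 0.70 and *Col9a1* at -0.60 ± 0.63, both of cartilage matrix, did not pass at 4 weeks, though *Matn4* passed with the replicate block within each time point (adjusted p = 0.018), in DESeq2 (adjusted p = 0.025), fitted alone (adjusted p = 0.0083) and with no filter (adjusted p = 0.00029), with 0.00029 to 0.26 over all alternatives, and *Matn3* was at 2 counts or fewer in all 4 libraries. At Day 3 the member called lower was *Col9a1* (-3.00 ± 0.79, adjusted p = 0.040).

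**Figure D4:**
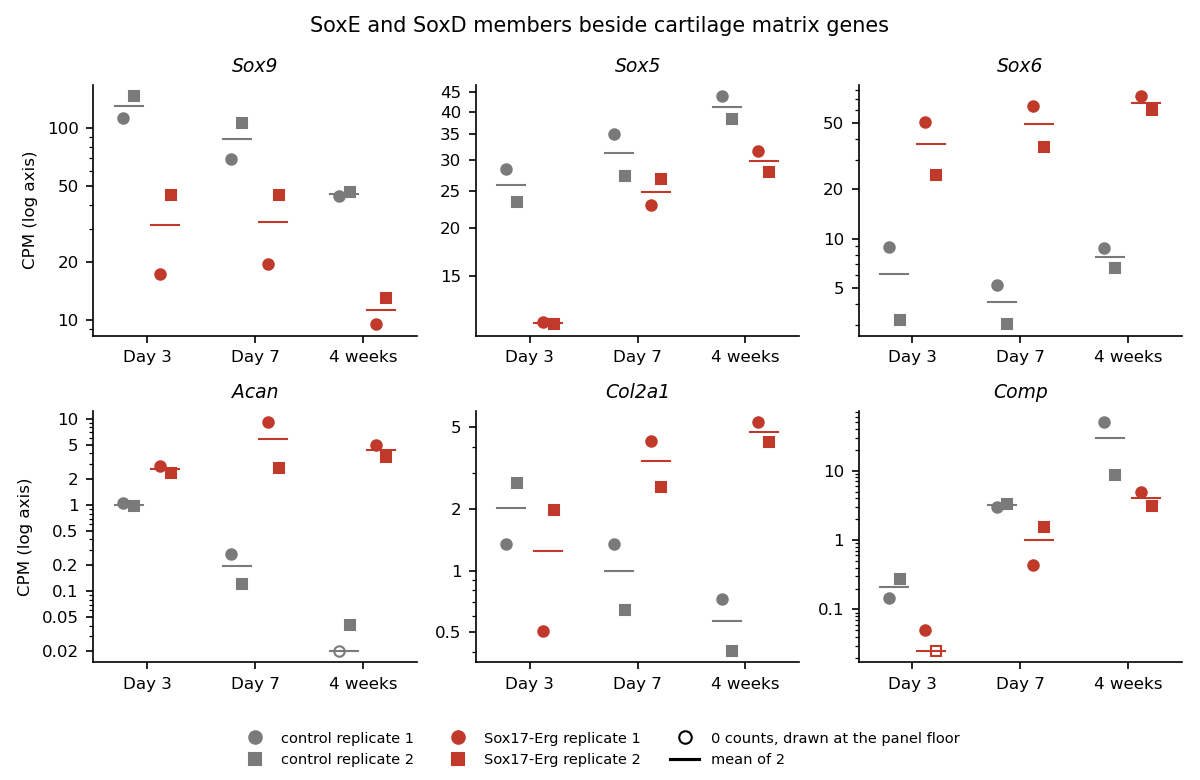
CPM of *Sox9*, *Sox5* and *Sox6* and of *Acan*, *Col2a1* and *Comp* in each of the 12 libraries, on log axes that differ between panels, with control in grey, *Sox17*-*Erg* in red, circles for replicate 1, squares for replicate 2, open symbols for 0 counts and bars for the mean of 2. *Acan* falls in control from 29 and 21 counts at Day 3 to 0 and 1 at 4 weeks while its *Sox17*-*Erg* libraries stay at 55 counts or more.

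The order of the 10 genes by CPM per kilobase of exon, which allows levels of different genes to be compared, changed with the treatment. In control *Sox9* was the first, *Sox4* the second and *Sox12* the third at each time point, with means of 31.6 ± 5.80, 6.95 ± 0.96 and 5.77 ± 0.51 CPM per kilobase at Day 3 (SD, n = 2). At 4 weeks *Sox9* was at 10.9 ± 0.37, *Sox4* at 7.09 ± 4.53 and *Sox12* at 4.11 ± 0.96 CPM per kilobase, and the libraries of *Sox4* and *Sox12* overlapped. In *Sox17*-*Erg* at 4 weeks *Sox17* was the first at 204 ± 18.1, *Sox4* the second at 30.2 ± 9.78, *Sox13* the third at 17.8 ± 0.0049 and *Sox6* the fourth at 4.50 ± 0.63 CPM per kilobase, none of these overlapping its neighbour. *Sox9* stood the third at Day 3 and the fourth at Day 7, where it overlapped *Sox13* both times, and was the fifth at 4 weeks. A viral copy of *Sox17* may be shorter than the exons of the gene, so its level per kilobase is uncertain. Without *Sox17*, the 9 genes summed to 24.5 to 52.9 CPM per kilobase in control and 43.4 to 69.5 in *Sox17*-*Erg*. At Day 3 the sums of *Sox17*-*Erg* (44.3 and 43.4) were below those of control (46.4 and 52.9). At Day 7 and 4 weeks both *Sox17*-*Erg* sums were above both control sums. Within that sum the share of *Sox9* was 33.0% to 67.6% in control libraries and 3.30% to 25.2% in *Sox17*-*Erg* libraries, and the share of *Sox13* was 4.16% to 8.79% and 11.8% to 32.0%.

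**Figure D5:**
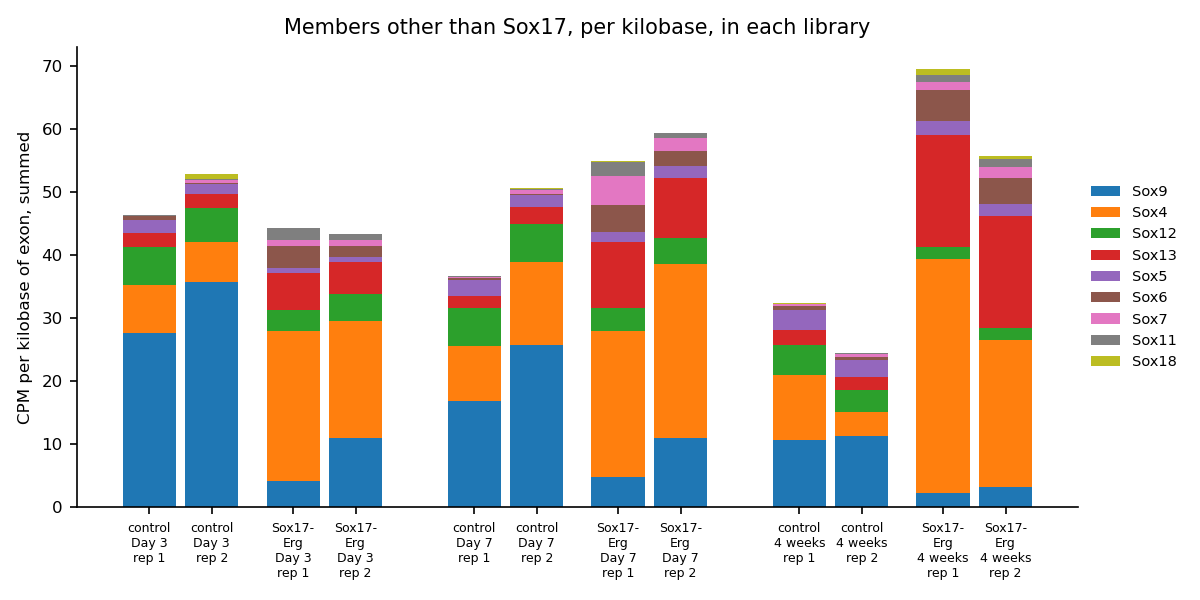
Stacked CPM per kilobase of exon of the 9 Sox genes other than *Sox17* in each of the 12 libraries, grouped by time point and treatment. The *Sox9* segment is at most 25.2% of a *Sox17*-*Erg* bar and at least 33.0% of a control bar, and the sum is highest in *Sox17*-*Erg* replicate 1 at 4 weeks, at 69.5.

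Within control, the Sox genes called over time were near the share of all genes. None was called from Day 3 to Day 7, where 4.7% of all genes were higher and 4.06% lower, and DESeq2 and an unadjusted p under 0.05 gave 0 members too. None was called from Day 7 to 4 weeks, where 0.174% of genes were higher and 0.219% lower, nor in DESeq2, and 1 member in each direction had an unadjusted p under 0.05. From Day 3 to 4 weeks *Sox5* rose by 0.67 ± 0.16 (adjusted p = 0.016), 1 of 10 against 13.9% of all genes, and *Sox9* fell by 1.53 ± 0.47 (adjusted p = 0.041), 1 of 10 against 12.6%. The *Sox5* call was lost without control replicate 2 at Day 3 (0.52, adjusted p = 0.13) or control replicate 1 at 4 weeks (0.57, adjusted p = 0.10), and the *Sox9* call held in 6 of 12 fits without 1 library each.

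Within *Sox17*-*Erg*, *Sox5* and *Sox13* rose with time and *Sox12* fell, while the SoxD gene *Sox6* was not called (0.83 ± 0.49 from Day 3 to 4 weeks, adjusted p = 0.23). From Day 3 to Day 7, *Sox5* (1.14 ± 0.17, adjusted p = 0.017) and *Sox13* (0.87 ± 0.16, adjusted p = 0.029) were higher, 2 of 10 against 2.04% of all genes. None was lower, against 1.38%, and none was lower in DESeq2 or at an unadjusted p under 0.05. From Day 7 to 4 weeks, *Sox13* was higher by 0.83 ± 0.16 (adjusted p = 0.037), against 1.15% of all genes, and *Sox12* lower (-1.08 ± 0.18, adjusted p = 0.025), against 0.671%. From Day 3 to 4 weeks, *Sox5* (1.40 ± 0.17, adjusted p = 0.00083) and *Sox13* (1.70 ± 0.16, adjusted p = 0.00038) were higher, against 15.1% of all genes, and *Sox12* (-1.04 ± 0.18, adjusted p = 0.0040) and *Sox9* (-1.48 ± 0.49, adjusted p = 0.046) lower, against 15.6%. The last call, that of *Sox9*, held in 3 of 12 fits without 1 library each, and without *Sox17*-*Erg* replicate 2 at Day 3 its value was -0.63 (adjusted p = 0.37). The 3 comparisons within a treatment share their libraries. For *Sox5*, the change in the difference between treatments from Day 3 to 4 weeks was 0.73 ± 0.23 (adjusted p = 0.14), and for *Sox9* it was 0.05 ± 0.67 (adjusted p = 0.99).

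Profiles within the family were compared by the root mean square difference of the 6 group means of log2 CPM, each gene centered on its own mean. The most alike were *Sox4* and *Sox13* (0.48), *Sox11* and *Sox6* (0.56), *Sox6* and *Sox13* (0.60), *Sox7* and *Sox13* (0.64), and *Sox12* and *Sox9* (0.65). Of these pairs, that of *Sox6* and *Sox13* lies within a subgroup, and *Sox5* and *Sox6* differed by 1.91. All profiles come from the same 12 libraries. Over all tested genes, the nearest to *Sox7* were *Fzd4* (0.31) and *Trpm3* (0.32), and to *Sox18* *Cntnap2* (0.24) and *Gm5862* (0.27). With 0 to 46 counts per library, *Sox18* was near the limit of detection, so its small distances are uncertain. *Sox17* had no near neighbour, with *Cdh5* at 2.37 and *D430041D05Rik* at 2.40.

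Of 10 other Sox genes, 3 passed the filter on low counts (*Sox21*, *Sox8* and *Sox10*), and *Sox21* was higher at each time point while 0 were lower in edgeR and DESeq2, with 1 lower at Day 7 at an unadjusted p under 0.05. Shares of all tested genes were 7.19%, 9.48% and 11.9% higher and 5.13%, 7.93% and 11% lower, and *Sox21* passed the filter only through its *Sox17*-*Erg* libraries, so its call is a description. *Sox21*, a SoxB factor known from neural progenitors and chosen for a closer account after its values were seen, had 0 counts in 5 control libraries and 1 in control replicate 1 at Day 7. Those with *Sox17*-*Erg* held 103 and 33 counts at Day 3, 546 and 174 at Day 7, then 831 and 627 at 4 weeks, up to 29.4 CPM. It was at least 26.8-fold higher at Day 3, 96.3-fold at Day 7 and 267-fold at 4 weeks, with adjusted p of 0.011, 0.0021 and 0.00062, and the Day 3 call was lost without control replicate 1 (adjusted p = 0.066) or control replicate 2 of that time (adjusted p = 0.058). Within *Sox17*-*Erg* it rose by 3.00 ± 0.61 from Day 3 to 4 weeks (adjusted p = 0.011), and at 4 weeks its 6.93 ± 1.15 CPM per kilobase lay between *Sox13* and *Sox6*. Its exons share 713 bases with the antisense gene *Gm4675*, which was not a row of the table, and 0.398% of its 31-base words with other genes. Its promoter, printed because the gene was close to 0 in control, held GGAAG from -240 to -236 and no SOX motif.
*Sox21*, chr14:118236981-118237280, minus strand: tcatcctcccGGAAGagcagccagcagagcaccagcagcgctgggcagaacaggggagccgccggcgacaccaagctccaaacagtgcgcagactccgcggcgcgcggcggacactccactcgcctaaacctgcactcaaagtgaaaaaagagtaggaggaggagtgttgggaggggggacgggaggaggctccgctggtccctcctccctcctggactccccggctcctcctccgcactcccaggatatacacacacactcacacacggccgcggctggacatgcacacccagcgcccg

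*Sox8* was between 1 and 12 counts and *Sox10* between 2 and 29 counts in every library, and neither was called. The remaining 7, *Sox1*, *Sox2*, *Sox3*, *Sox14*, *Sox15*, *Sox30* and *Sry*, had 10 counts or fewer in every library. Reads shared between Sox genes were few: at most 1.12% of the 31-base words of any of the 10 occurred in transcripts of another gene on the same strand, for *Sox9*, and 0 for *Sox17*, *Sox18* and *Sox6*.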

How the data were processed

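RNA of mouse cardiac fibroblast cultures was measured by stranded bulk RNAseq in 12 libraries, 2 for each treatment and time point. Reads were trimmed with BBDuk and quantified with Salmon by the authors, who deposited estimated counts per Ensembl gene, already whole numbers and not scaled for library size. The labels name mm10, and the annotation used is not given in the sources used here. Gene symbols and positions were taken from GENCODE M21 (GRCm38), which held 35493 of 35727 genes.

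Models were run with edgeR 4.0.16 (R 4.3.3). TMM factors, filterByExpr (minimum count 10, minimum total 15, 15506 genes kept) and a quasi-likelihood model with 1 mean for each of 6 groups and 6 residual degrees of freedom were used. Errors are standard errors of that model or SDs of 2 libraries, and replicates differed by a chi-square per degree of freedom of 27.4 to 70.4, so counting error is the smaller part. Single genes were also tested by exact permutation within time points, and within same-numbered libraries as an alternative chosen after seeing the data. The 10 genes, the lists of target and marker genes and the tests were chosen with earlier results of these data known. All 10 genes are named, and of each target list up to 6 genes with the smallest adjusted p at 4 weeks.

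Alternatives were DESeq2 1.42.0, its size factors, no filter, single time points, an adjusted p under 0.01, each library left out, and a block for replicate number (across the whole set or by time point). The number comes from the sample titles. Same-numbered libraries of both treatments deviated together across genes, by correlations of 0.19, 0.30 and 0.17 at the 3 time points. Between time points they did so from Day 3 to Day 7 (0.17 in control, 0.22 in *Sox17*-*Erg*) and not with 4 weeks (-0.11 to -0.05). Viruses of compared conditions were made on the same day per the study's methods. Promoters came from RefSeq (GRCm38.p6).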

Additional observations from a re-analysis of the deposited data

Results flagged for a closer look

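The difference between treatments in *Sox13* changed from Day 3 to 4 weeks by 1.66 on the log2 scale (SE 0.23, adjusted p = 0.0075 in the interaction test of edgeR), and so was picked out by a test of the difference itself. The log2 fold change was 1.31 at Day 3 and 2.97 at 4 weeks, control means were 9.51 and 9.79 CPM and *Sox17*-*Erg* means 23.6 and 76.7 CPM (n = 2 each). The call held in 12 of 12 fits that left out 1 library. With 2 libraries per group, the search for single libraries that stand apart in a group of 4 or more did not apply.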

How the results depend on the processing

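At an adjusted p under 0.01, the members called higher at Day 3 fell from 5 to 2 and those called lower from 2 to 1; lower at Day 7 went from 1 to 0, lower at 4 weeks from 2 to 1, the control changes from Day 3 to 4 weeks from 1 to 0 in each direction, and lower in *Sox17*-*Erg* over that time from 2 to 1. DESeq2 also called *Sox7* higher and *Sox12* lower at Day 3 and *Sox4* higher at Day 7, which gave 6 higher and 3 lower at Day 3 and 6 higher at Day 7. DESeq2 and the fit with no filter each gave 2 lower at Day 7 and 2 lower from Day 3 to 4 weeks in control, against 1 and 1, and 2 and 3 members whose difference between treatments changed, against 1; with no filter, 5 rose from Day 3 to 4 weeks in *Sox17*-*Erg*, against 2. Each time point fitted alone gave 0 lower at Day 7. The replicate block gave 2 lower at Day 7 both over all libraries and within each time point, the added gene being *Sox9*; it also called *Sox4* at Day 7 within time points and *Sox5* at 4 weeks over all libraries, and moved *Sox18* at Day 7 to 0.12. It changed no other call of a Sox member between treatments.

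Leaving out 1 library each gave 2 to 5 higher and 1 to 3 lower at Day 3, 4 to 6 higher and 0 to 2 lower at Day 7, 4 to 5 higher and 1 to 3 lower at 4 weeks, 0 to 1 higher and 0 to 1 lower from Day 3 to 4 weeks in control, and 1 to 2 lower in *Sox17*-*Erg*. Over those fits *Sox18* ran from -3.48 to 4.69 at Day 3 and from -2.43 to 2.45 at Day 7, both highest without control replicate 2, and was at 0.54 at Day 7 without *Sox17*-*Erg* replicate 2. *Sox10* ran from -1.48 to 1.15 at Day 3, positive without control replicate 1, and from -0.81 to 0.75 at 4 weeks, at -0.81 without *Sox17*-*Erg* replicate 2 and -0.09 without control replicate 1. *Col9a1* ran from -1.76 to 0.49 at 4 weeks, positive without control replicate 1. Without both control libraries numbered 2 at Day 3 and Day 7, chosen after seeing the data, 3 members (*Sox7* among them) were higher and 1 lower at Day 3, 0 lower at Day 7, and 0 changed in either direction from Day 3 to 4 weeks in control, 1 was lower in *Sox17*-*Erg* over that time, and *Sox18* was at 4.70 and 2.44. The causes were not tested. The calls of *Sox17* and *Sox13* at every time point, of *Sox11* and *Sox6* at Day 7 and 4 weeks, of *Sox12* at 4 weeks and of *Sox5* at Day 3 held in each fit without 1 library. *Sox18* was at 0 to 46 counts per library.

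Of all tested genes, the Day 3 comparison called 1115 higher and 795 lower, that of Day 7 1470 higher and 1230 lower, and that of 4 weeks 1845 higher and 1703 lower. With an adjusted p under 0.01 these became 304 with 117, 691 with 410, and 1080 with 742. The Day 3 counts became 1973 and 1619 with the replicate block within each time point, and the genes lower at Day 3 1290 in DESeq2 and 1333 with no filter. At Day 7, 609 were higher and 479 lower when that time point was fitted alone, and 2065 were lower with the block within it.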
